A study of Homo sapiens with 2 samples.

Results

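The genes described here are 9 of the epithelial-mesenchymal transition (EMT): the transcription factors SNAI1, SNAI2, ZEB1, ZEB2 and TWIST1, the cadherins CDH1 and CDH2, the intermediate filament gene VIM and the epithelial surface gene EPCAM. They were read by 19 of the 54613 probe sets of the array, chosen because the annotation of the platform gives each of these probe sets to 1 of the 9 genes alone. Over the whole array, probe sets assigned to a single gene covered 19775 genes. Of the probe sets of the 9 genes, 0 were shared with another gene. The cells were AGS, a human line from a gastric adenocarcinoma, in a pair of stable derivatives. AGS.W cells carry a lentiviral vector with the coding region of WTX (AMER1), a tumour suppressor gene, and AGS.veh cells carry the control vector. The arrays were made to find the genes and pathways that differ with WTX. According to the methods of the study, its stable lines were made by lentiviral infection followed by puromycin. Whether a line was a pool or a clone is not given in the sources used here. Each line was measured on 1 Affymetrix U133 Plus 2.0 array, on which some genes have several probe sets, so there was no replicate and tests and standard errors could not be had. Every difference below is therefore a description of 2 cultures, on the log2 scale, as AGS.W minus AGS.veh.

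EMT is the programme by which epithelial cells loosen their contacts and take on the shape and motility of mesenchymal cells. SNAI1, SNAI2, ZEB1 and ZEB2 are zinc finger proteins and TWIST1 is a basic helix-loop-helix protein, and all of them bind E-boxes, short elements in promoters and enhancers. CDH1 (E-cadherin), which holds epithelial cells together at adherens junctions, is their best known repressed target, and its replacement by CDH2 (N-cadherin) is called the cadherin switch. Vimentin is the filament protein of mesenchymal cells, and EPCAM is an adhesion protein on the surface of simple epithelia.

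The arrays had nearly equal distributions, with a median log2 signal of 4.02 in AGS.W versus 4.03 in AGS.veh. Signals below the median of their array may be background, and a difference in which 1 of the arrays lies under it has no firm size. Where a pair of values is given with no line named, AGS.W comes first. The label of the RNA extraction names a brain tissue, while the other labels name AGS cells. Of 7 epithelial markers 4 passed the median on at least 1 array (the signal filter), among them the keratins KRT8, with 9.76 in AGS.W versus 10.13 in AGS.veh, and KRT18, with 10.87 and 11.17. The epithelial splicing factor ESRP1 had 2.90 on both arrays and GRHL2, an epithelial transcription factor, 2.76 and 2.94, and with the keratin KRT19 (3.11 and 2.76) these lay below the median. Of 9 measured brain markers 5 passed, namely MBP, MOG, SNAP25, GRIN1 and RBFOX3. GFAP, the filament gene that defines astrocytes, lay below the median with 3.44 and 2.97. The highest signal among the brain markers was 6.10 in AGS.W versus 6.19 in AGS.veh. Of the fibroblast markers 4 of 8 passed, with a highest signal of 7.89 in AGS.W versus 6.95 in AGS.veh. Of 5 endothelial markers 2 passed, and of 4 measured white blood cell markers 1 did. Summed over each marker list as linear signals and returned to log2, the epithelial list had 11.53 in AGS.W versus 11.83 in AGS.veh. The fibroblast list had 8.35 and 7.82, and the brain list 7.88 and 7.66. The brightest genes weigh most in such a sum, in the epithelial list KRT18 and KRT8 and in the fibroblast list COL1A1. The median difference of the 4 fibroblast markers past the filter was 0.07. Of these, COL1A1 (7.89 and 6.95) and THY1 (4.51 and 4.24) were higher in AGS.W. PDGFRB (4.08 and 5.06) and DCN (4.14 and 4.28) were lower. Signals of different genes come from different probes, so the sums set the lines side by side within a list, and not the lists against each other. The part of other cell types in the differences below was not tested. The single probe set of WTX had 3.70 in AGS.W versus 3.86 in AGS.veh, both below the median, and whether it lies inside the coding region of the vector was not tested, so it does not check which line carries WTX.

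Promoter windows were in the RefSeq table (GRCh38.p14) for 4 of the 9 genes, VIM, ZEB1, ZEB2 and CDH2, as 11 windows, since ZEB1 has 7 listed starts and CDH2 has 2. The search covered the 250 bases before each start, for the E-box letters CAGGTG on both strands, which read CACCTG on the other strand. Of 35116 windows of this length, 17.5% held at least 1 match and 2.53% at least 2. Shown here are the most upstream window of CDH2, the gene with the largest difference, and the most upstream window of ZEB1, the only one of the 4 genes whose windows held a match. Both are given 5′ to 3′ on the strand of the gene, in lower case, with CAGGTG matches in capitals, as chr18:28177131-28177380 on the minus strand for CDH2 and chr10:31318167-31318416 on the plus strand for ZEB1.
CDH2: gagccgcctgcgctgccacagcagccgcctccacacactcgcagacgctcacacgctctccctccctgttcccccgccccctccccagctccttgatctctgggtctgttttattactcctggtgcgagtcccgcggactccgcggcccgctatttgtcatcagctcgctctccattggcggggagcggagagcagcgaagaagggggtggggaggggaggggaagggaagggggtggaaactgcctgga
ZEB1: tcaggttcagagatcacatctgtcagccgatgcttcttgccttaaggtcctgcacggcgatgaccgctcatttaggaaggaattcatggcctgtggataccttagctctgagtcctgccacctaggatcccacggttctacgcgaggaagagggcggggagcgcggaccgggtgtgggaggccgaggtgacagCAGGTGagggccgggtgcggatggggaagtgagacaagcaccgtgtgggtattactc
The match in this ZEB1 window begins 57 bases before the start. A further ZEB1 window, chr10:31318966-31319215, held 2 matches, at 242 and 85 bases before its start, and the remaining windows of the 4 genes held 0. ZEB1 supplied most of the 11 windows, and 17.5% of all windows held at least 1 match, so the matches do not set ZEB1 apart. These matches are letters in a window and not measured binding, and a window with 0 matches says only that these letters are not in it.

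The 9 genes did not move together. Of their 19 probe sets, 1 was at least 2-fold lower in AGS.W, for CDH2, and 0 were at least 2-fold higher, where over all 54613 probe sets 1.12% passed 2-fold on the lower side and 1.07% on the higher side. A total of 12 differences were above 0 and 7 below it, and 15 were smaller than 0.5 in size. The median of the 19 was 0.09, beside 0.00 over all probe sets. The probe sets past the signal filter numbered 9, from 7 genes, and 4 of these had a difference above 0 and 5 below it. CDH1 and ZEB2 had no probe set past the filter. Besides CDH2, the largest differences above the filter were those of SNAI2, lower in AGS.W, and EPCAM, higher in AGS.W, and both stayed under 2-fold.

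**Figure D1:**
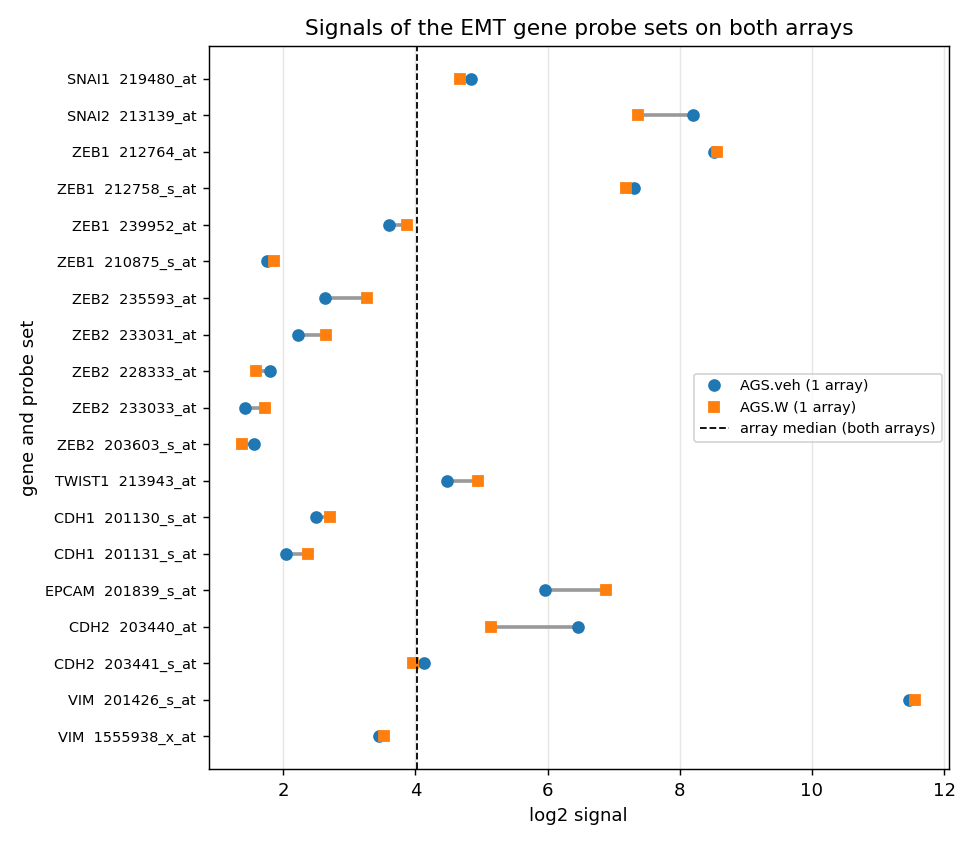
Log2 signal (horizontal axis) of each of the 19 probe sets of the 9 EMT genes (vertical axis) in AGS.veh (blue circles) and AGS.W (orange squares), 1 array each, with the array median as a dashed line and a grey bar joining both values. The longest bar is that of the brighter CDH2 probe set, from 6.46 in AGS.veh to 5.15 in AGS.W, and all probe sets of CDH1 and ZEB2 lie left of the dashed line.

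Among the transcription factors, SNAI2 (Slug) had the largest difference. Its 1 probe set read 7.36 in AGS.W versus 8.20 in AGS.veh, both well above the median, and was thus 1.78-fold lower in AGS.W, with a difference of -0.83. Among the 1000 probe sets nearest to it in mean signal, 7.40% were at least as far apart. SNAI1 (Snail), the founding member of this family, was read by 1 probe set with 4.67 in AGS.W versus 4.84 in AGS.veh, a difference of -0.17. Of the probe sets of like signal, 56.9% were at least as far apart as SNAI1. Both SNAI differences were thus below 0, but that of SNAI1 was close to 0 and gives no firm direction. SNAI2 and SNAI1 have 1 probe set each, so neither value could be set against a second reading.

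ZEB1 was nearly equal in both lines. Its brightest probe set had 8.56 in AGS.W versus 8.51 in AGS.veh, a difference of 0.05. The next had 7.18 and 7.31, a difference of -0.13. The readings of ZEB1 above the median thus lay on either side of 0 and close to it, and 90.0% and 72.9% of probe sets of like signal were at least as far apart. The other probe sets of ZEB1 lay below the median, one with 3.87 in AGS.W versus 3.59 in AGS.veh and the other with 1.86 and 1.76. ZEB1-AS1, the non-coding RNA transcribed from the opposite strand next to ZEB1 and picked here after its value was seen, had 5.09 in AGS.W versus 4.21 in AGS.veh on its 1 probe set, a difference of 0.88.

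ZEB2, the closest relative of ZEB1, had no signal above the median in either line. Its 5 probe sets ranged from 1.38 to 3.28 in AGS.W and from 1.42 to 2.63 in AGS.veh. The differences ran from -0.22 to 0.65, with 3 above 0 and 2 below it. As all of these signals may be background, the ZEB2 differences have no firm size, and no order between the lines could be read from them. TWIST1 was read by 1 probe set with 4.95 in AGS.W versus 4.48 in AGS.veh, above the median on both arrays. It was 1.39-fold higher in AGS.W, a difference of 0.48, and 17.0% of probe sets of like signal were at least as far apart.

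**Figure D2:**
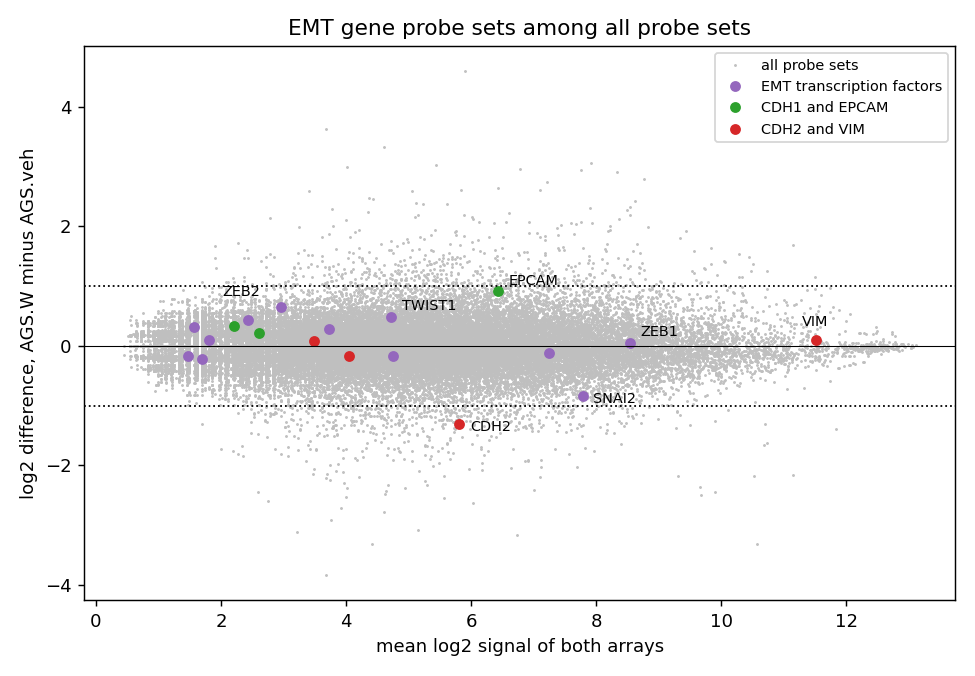
Log2 difference AGS.W minus AGS.veh (vertical axis) against the mean log2 signal of both arrays (horizontal axis) for all 54613 probe sets in grey, with the 12 of the EMT transcription factors in purple, those of CDH1 and EPCAM in green and those of CDH2 and VIM in red. Dotted lines mark 2-fold. CDH2 at -1.31 is the only coloured point outside them, and EPCAM at 0.92 and SNAI2 at -0.83 lie just inside.

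CDH1, the E-cadherin gene, lay far below the median in both lines. One probe set had 2.72 in AGS.W versus 2.50 in AGS.veh, and the other had 2.37 and 2.05. Both readings were higher in AGS.W, by 0.22 and 0.33, and 42.6% and 20.0% of probe sets of like signal were at least as far apart. At these signals a CDH1 transcript was not separable from background on either array, so a switch between CDH1 and CDH2 could not be read from these data.

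CDH2, the N-cadherin gene, was the 1 gene of the 9 past the 2-fold threshold. Its brighter probe set had 5.15 in AGS.W versus 6.46 in AGS.veh, above the median on both arrays, and was 2.48-fold lower in AGS.W, with a difference of -1.31. Of the 1000 probe sets nearest in signal, 1.90% were at least as far apart, as were 0.888% of all probe sets. The other probe set was dim, with 3.96 in AGS.W, just below the median, and 4.13 in AGS.veh, just above it. Its difference was -0.17, in the same direction and 1.13-fold in size. As the mean of both probe sets the difference of CDH2 was -0.74, which is below 2-fold, so the threshold is passed on the brighter probe set alone. RNA was taken from whole cultures, where fewer cells with CDH2 and less CDH2 RNA per cell cannot be told apart.

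EPCAM has 1 probe set, which read 6.88 in AGS.W versus 5.96 in AGS.veh. The signal was above the median on both arrays and 1.89-fold higher in AGS.W, a difference of 0.92. Of probe sets of like signal, 4.70% were at least as far apart. This is the one epithelial gene of the 9 with a signal above the median. EPCAM-DT, the non-coding gene next to EPCAM, lay below the median on both of its probe sets, with 1.45 on both arrays for one and 2.24 in AGS.W versus 2.07 in AGS.veh for the other.

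VIM, the vimentin gene, was bright and nearly equal in both lines. Its brighter probe set had 11.56 in AGS.W versus 11.47 in AGS.veh, a difference of 0.09, and 63.5% of probe sets of like signal were at least as far apart. The other lay below the median with 3.53 and 3.44 and had a difference of 0.08. Both mesenchymal genes of the 9 were thus read above the median in both lines, and only CDH2 was 2-fold apart.

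The other genes of the programme were taken as 10 lists, and for them a gene was represented by its brightest probe set among those assigned to that gene alone. Over all lists together 251 genes passed the signal filter, with 5 past 2-fold on the higher side in AGS.W, 20 on the lower side and a median difference of -0.04. Over all 12811 genes past the filter, 1.83% were past 2-fold on the higher side and 1.94% on the lower side, with a median of -0.01. Of the 251, 1.99% were higher and 7.97% lower by that fold. The lists were chosen with earlier results of these data known, which may have shaped these shares and those of each list below. The part of that choice was not tested. The lists share some genes with each other.

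Of 15 other transcription factors linked to the EMT that passed the filter, 4 were 2-fold lower or more in AGS.W and 0 higher by that much, with a median difference of -0.14. HMGA2, a chromatin protein that is bound up with mesenchymal states, had 3.61 in AGS.W versus 6.68 in AGS.veh on its brightest probe set, a difference of -3.07. Its other probe set past the filter had 4.03 on both arrays, and the mean over its 9 probe sets was -0.51. The signal in AGS.W lay below the median, so the size of the difference of HMGA2 is not firm. SOX4, a factor of developing tissues, had 8.17 and 9.34, a difference of -1.16, and 4 of its 5 other probe sets past the filter were also lower, 1 of them below the median in AGS.W, while the remaining one had 4.03 and 3.81, the latter below the median. TCF4, a helix-loop-helix partner of TWIST proteins, had 4.58 and 5.75, a difference of -1.17, and its other probe sets past the filter ranged from -1.11, where AGS.W lay below the median, to -0.59. ETS1, which is outside the rule for naming genes and completes the 4, had 7.71 and 8.81, a difference of -1.10. As means over all probe sets of a gene, 1 gene of this list rather than 4 was at least 2-fold lower. The closest relatives of the SNAI and TWIST genes, picked after their values were seen, were less than 2-fold apart: SNAI3 had 2.39 and 2.29, below the median, and TWIST2 had 5.71 and 6.01.

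Corepressors and regulators of SNAI and ZEB proteins were mostly alike in both lines. Of 30 that passed the filter 1 was at least 2-fold lower and 0 higher, with a median difference of -0.10. The 1 was AJUBA, a LIM protein that binds SNAI repressors and adherens junctions, with 7.13 in AGS.W versus 8.45 in AGS.veh, a difference of -1.32. Its other probe sets past the filter were lower too, one with 5.49 and 6.69 and the other with 3.73, below the median, and 5.56. Among 41 genes of TGF-beta signalling and other inducers of EMT, 1 was at least 2-fold higher and 4 lower, with a median of -0.20. TGFB2, a ligand that drives EMT in many epithelia, had 4.12 in AGS.W versus 6.22 in AGS.veh, a difference of -2.10. Its other probe set past the filter was also lower in AGS.W, with 1.65, below the median, versus 4.77 in AGS.veh. The receptor gene TGFBR2, outside the naming rule, had 6.67 and 7.78, a difference of -1.11. WNT5A, a ligand of non-canonical Wnt signalling, had 6.16 and 8.08, a difference of -1.92, and the cytokine IL6 had 5.64 and 6.86, a difference of -1.22. BMP2, a ligand of the BMP branch, was the one that was higher, with 7.16 and 5.95, a difference of 1.21.

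Genes of mesenchymal structure and matrix differed in 1 direction where they were 2-fold apart. Of 52 that passed the filter, 7 were at least 2-fold lower in AGS.W, or 13.5%, and 0 higher, with a median difference of -0.22, 30 differences below 0 and 22 above it. SERPINE2, a secreted protease inhibitor, had 8.22 in AGS.W versus 10.40 in AGS.veh, a difference of -2.18. NNMT, a methyltransferase of nicotinamide, had 6.10 and 8.13, a difference of -2.03, and its other probe sets past the filter were lower too, one with 5.39 and 7.16 and the other with 3.62, below the median, and 4.32. With WNT5A, which is also in this list, these were the 3 largest. On the other side, COL1A1, a collagen of fibrous matrix picked after its value was seen, had 7.89 in AGS.W versus 6.95 in AGS.veh, a difference of 0.94. Fibronectin (FN1), picked in the same way, had 4.24 and 4.26.

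**Figure D3:**
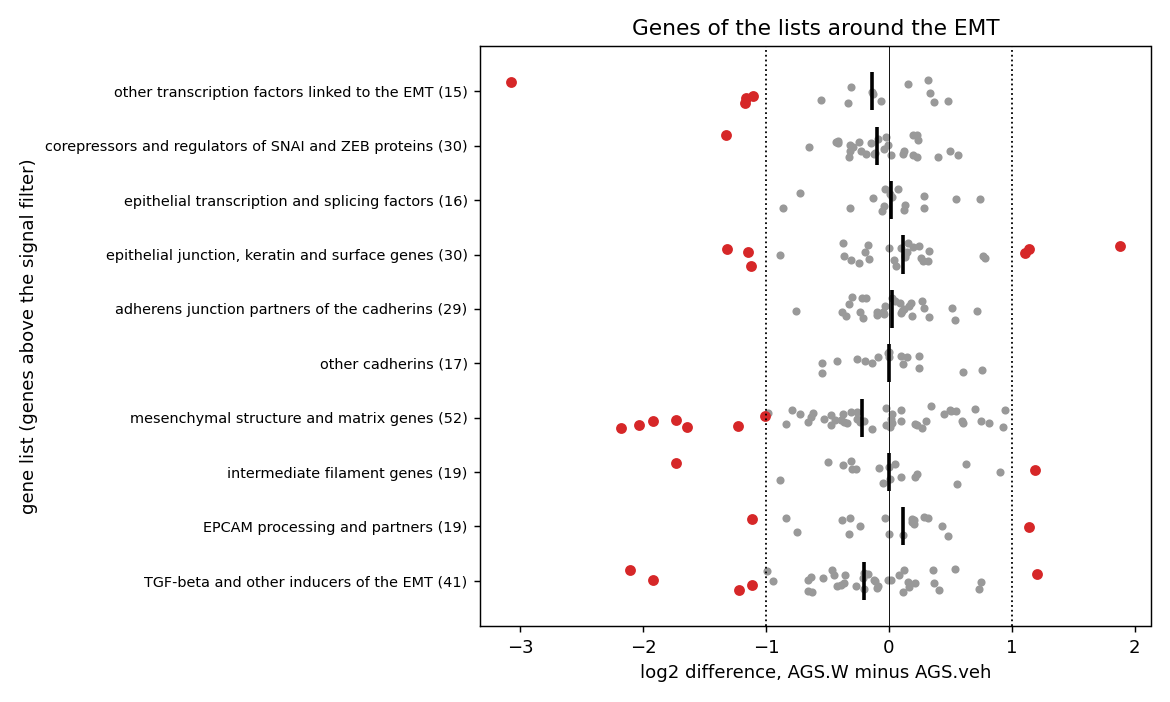
Log2 difference AGS.W minus AGS.veh (horizontal axis) of each gene past the signal filter in the 10 lists (vertical axis, number of genes in brackets), 1 point per gene on its brightest probe set, in red where it is at least 2-fold apart, with a black line at the median of the list and dotted lines at 2-fold. The mesenchymal list has 7 red points on the lower side and 0 on the higher side, and the epithelial junction list has 3 on each.

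Epithelial junction, keratin and surface genes lay on either side. Of 30 past the filter, 3 passed 2-fold on the higher side and 3 on the lower, or 10.0% each, with a median difference of 0.11. The receptor ERBB3, which is common in luminal epithelia, had 7.87 in AGS.W versus 5.99 in AGS.veh, a difference of 1.88, and its other probe sets past the filter had differences of 1.49 and, with AGS.veh below the median, 0.38. The membrane protease TMPRSS4, whose AGS.veh signal lay below the median, had 5.10 and 3.96, and the polarity gene PATJ had 5.96 and 4.85. Both of these were a little past 2-fold. Averaging all probe sets gave 0.62 for PATJ and 0.87 for ERBB3, both under 2-fold. The tight junction gene CLDN1 was lower in AGS.W, with 4.39 against 5.71, as were CD24, a surface glycoprotein, with 8.06 against 9.20, and MAL2, a gene of apical transport, with 5.19 against 6.31. All 5 other probe sets of CD24 past the filter lay between -1.22 and -1.05. CLDN1 came to -0.96 as the mean of all of its probe sets, which is under 2-fold. Of 16 epithelial transcription and splicing factors past the filter, 0 were 2-fold apart in either direction, with a median of 0.02. The largest difference among them was that of FOXA1, an endodermal pioneer factor, with 3.66 in AGS.W, below the median, and 4.52 in AGS.veh.

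The partners of the cadherins at adherens junctions were close to equal. Of 29 past the filter, 0 were 2-fold apart, and the median difference was 0.02. The largest difference was that of the nectin gene NECTIN4, with 4.29 in AGS.W versus 5.05 in AGS.veh. Of 17 other genes of the cadherin superfamily past the filter, 0 were 2-fold apart, with a median of 0.00. As means over all probe sets of a gene, with the filter applied to these means, the median was -0.20 and 0 were 2-fold apart. On the brightest probe sets, the largest difference was that of the protocadherin PCDH7, with 4.59 in AGS.W versus 3.83 in AGS.veh, the latter below the median. CDH12 passed 2-fold below the filter, with 1.81 and 2.88, where signal may be background. CDH3 (P-cadherin), another classical cadherin of epithelia picked after its value was seen, had 4.55 and 4.74. The mesenchymal cadherin CDH11, picked likewise, had 4.12 on both arrays. In the cadherin superfamily genes measured here above the filter, CDH2 was the one at least 2-fold apart, and on its brighter probe set alone. As the mean of both of its probe sets, CDH2 came to -0.74.

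**Figure D4:**
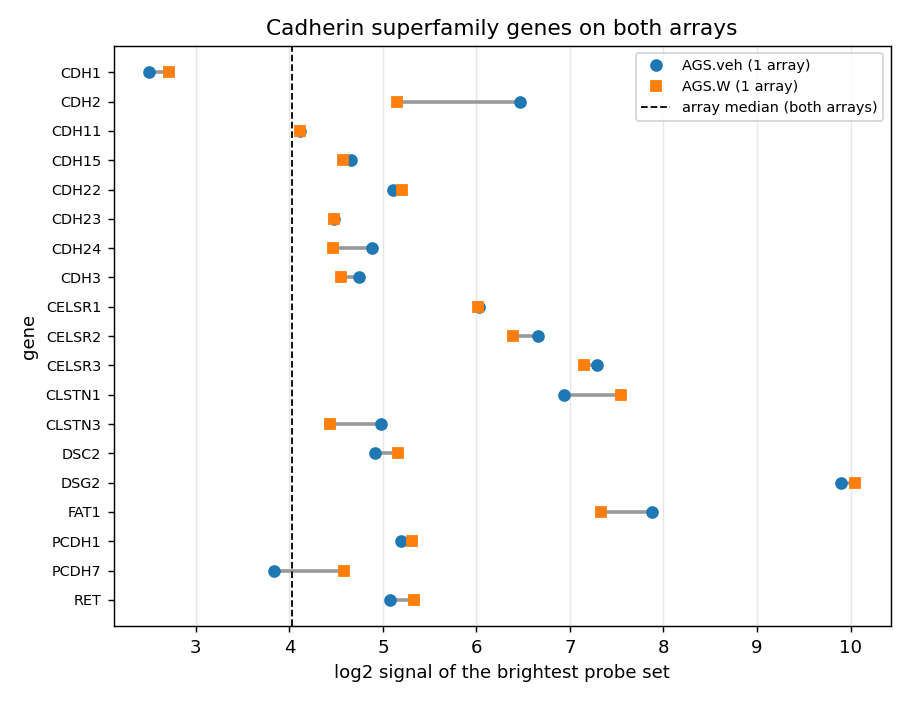
Log2 signal of the brightest probe set (horizontal axis) of CDH1, CDH2 and the 17 other cadherin superfamily genes past the signal filter (vertical axis) in AGS.veh (blue circles) and AGS.W (orange squares), 1 array each, with the array median as a dashed line. Signals of different genes come from different probes and are not to be compared with each other, and CDH2 has the widest gap between the arrays, 6.46 against 5.15.

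Intermediate filament genes related to VIM and genes that process or bind EPCAM completed the lists. Of 19 filament genes past the filter, 1 passed 2-fold on each side, with a median of 0.00. KRT15, a keratin of stratified and progenitor epithelia, had 5.83 in AGS.W versus 4.65 in AGS.veh, a difference of 1.19, and KRT80 had 6.48 and 8.21, a difference of -1.73. Of 19 genes for the processing and partners of EPCAM, 1 was higher and 1 lower at 2-fold, with a median of 0.12. The higher one was TMPRSS4, given above. The lower one was PSEN2, a subunit of the gamma-secretase that cuts EPCAM within the membrane, with 5.08 in AGS.W versus 6.20 in AGS.veh, and its mean over all probe sets was -0.54. Of the 22 genes that the naming rule took from the lists, 19 were at least 2-fold apart. Of these, 5 have a single probe set, and of the 14 with several, 7 stayed 2-fold apart as the mean of all of their probe sets. Of the 12 with another probe set past the filter, 10 kept 1 direction throughout.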

How the data were processed

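RNA of AGS.W and AGS.veh was hybridised to 1 Affymetrix U133 Plus 2.0 array per line. The deposited tables hold a log2 signal for every probe set, processed by the authors, and were kept as given. The labels list MAS5 and RMA as tools without their roles. Of the versions and the background correction, nothing is given in the sources used here. After leaving out 62 control probe sets, the annotation of 2016 gave 41091 probe sets to 1 gene, 1801 to several and left 11721 unnamed here. Symbols were updated by gene identifier through RefSeq.

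The fold threshold of 2 is that of the methods of the study, while the FDR of those methods needs replicates. The 9 genes and the 10 lists were chosen with earlier results of these data known. The naming rule took up to 3 genes per list and direction that were at least 2-fold apart, or otherwise the largest difference. Probe sets of like signal were the 1000 nearest in mean signal. They give no replicate error. The number of arrays limits the precision. Alternatives were scaling, signal filter, fold threshold and probe set summary. The code was tested on simulated data. Values were computed in Python 3.11.15 with pandas 2.3.3, numpy 2.4.6 and statsmodels 0.14.6, and drawn with matplotlib 3.10.9.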

Additional observations from a re-analysis of the deposited data

How the results depend on the processing

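No paired analysis was possible because AGS.W and AGS.veh were read on a single array apiece. Median centring, quantile normalization and a lowess curve moved the differences of the 19 probe sets by between -0.03 and 0.05 and changed the sign of 0 of them. The deposited arrays already had nearly equal distributions, so median centring and quantile normalization could change little. SNAI1, SNAI2, TWIST1 and EPCAM have 1 probe set, so no other summary could be had for them. CDH2 came to -0.74, both as the mean of all probe sets and of those past the filter, and ZEB2 to 0.20 as the mean of all. At 1.5-fold, 2 of the 19 probe sets were higher and 2 lower, beside 4.42% and 4.72% of all probe sets, and at 3-fold 0 were lower, beside 0.22%. The 2 higher ones were that of EPCAM and 1 of ZEB2, the latter below the median on both arrays. The 2 lower ones, of CDH2 and SNAI2, lay above it on both. Over all genes past the filter, 6.64% were higher and 7.37% lower at 1.5-fold, and 0.437% and 0.445% at 3-fold. Of the 251 genes of all lists, 21 were higher and 39 lower at 1.5-fold, and 1 higher and 8 lower at 3-fold. With means of all probe sets, 3 genes of all lists were at least 2-fold higher and 14 rather than 20 lower, and the median was -0.062. For such means the filter was applied to the mean signals, so the genes past it need not be the same, and no shares are given. Over all genes past that filter, such means left 143 higher and 136 lower. Of the other EMT transcription factors, 1 was lower at 3-fold and 1 with such means. Of the epithelial junction genes, 5 were higher and 4 lower at 1.5-fold, and 1 higher and 0 lower at 3-fold. With such means 1 was higher and 2 lower, and the median was 0.020. Of the 52 mesenchymal genes, 7 were higher and 14 lower at 1.5-fold. With such means 6 genes of this list were at least 2-fold lower and 0 higher. With no signal filter, over the 71 measured genes of the list, the median was -0.13. Whether dim signals hold any transcript cannot be told from 1 array, which limits CDH1, ZEB2 and the dim probe sets of ZEB1, VIM and CDH2.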
